A study of Mus musculus with 48 samples.

Results

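The genes described here make cholesterol and fatty acids or control that synthesis: 34 genes, chosen by name and all present among the 16014 genes of the RPKM table. They are 7 genes of the mevalonate steps, 3 that carry squalene to lanosterol, 8 that turn lanosterol into cholesterol, 6 SREBP regulators with a sterol carrier, 4 genes of acetyl-CoA supply and chain synthesis, and 6 elongases and desaturases. RNA was read in 48 libraries of mouse brain, 4 for each of 12 groups. The groups are 5xFAD mice given PLX5622, 5xFAD mice given vehicle, Wild-type mice given PLX5622 and Wild-type mice given vehicle, each in cortex, hippocampus and thalamus. All are C57BL/6 by strain, and vehicle or PLX5622 at 1200 ppm in chow was given between 1.5 and 7 months of age. The 5xFAD line carries human transgenes with mutations of familial Alzheimer's disease under the Thy1 promoter, which is active mainly in neurons, and develops amyloid plaques. PLX5622 inhibits CSF1R, the receptor that microglia need to survive. The piece named thalamus also held striatum. The labels give neither the sex of the mice nor which regions came from 1 mouse.

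Cholesterol does not cross the blood-brain barrier, so the brain makes its own, and most of it ends in myelin. Acetyl-CoA is turned into mevalonate, isoprenoid units, squalene and lanosterol, and a last series of steps turns lanosterol into cholesterol. When sterols in the membrane of the endoplasmic reticulum run low, SCAP escorts SREBP2, the product of Srebf2, to the Golgi, where it is cut into an active transcription factor. INSIG1 and INSIG2 hold SCAP back when sterols are plentiful. SREBP1, the product of Srebf1, does the same mainly for fatty acid synthesis. SREBPs bind sterol regulatory elements, usually beside a CCAAT box bound by NF-Y.

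Several libraries stood apart. Results on treated 5xFAD hippocampus are given with and without the 2 that carried liver transcripts. Replicates 3 and 4 of 5xFAD + PLX5622 hippocampus carried liver transcripts: Alb, the albumin gene, read 633.6 and 112.2 RPKM in them and at most 39.4 RPKM in the other 46 libraries. The liver markers, of which 14 of 15 were measured, summed to 1349.7 and 265.8 RPKM there, against 4.64 and 8.97 RPKM in replicates 1 and 2. Replicate 1 of the same group had a low myelin signal: its 12 mature oligodendrocyte markers summed to 698.7 RPKM, while those of the other 3 libraries summed to 1795.5, 2025.2 and 2085.3 RPKM. Xist, the RNA of the inactive X chromosome, was above 20 RPKM in 1 library of each 5xFAD + PLX5622 group (replicate 1) and of each 5xFAD and Wild-type group (replicate 3) and in 0 libraries of the Wild-type + PLX5622 groups. Choroid plexus markers summed to 1422.9 RPKM in 5xFAD + PLX5622 hippocampus replicate 3, 4239.3 RPKM in Wild-type hippocampus replicate 3, 3875.0 RPKM in Wild-type + PLX5622 hippocampus replicate 2 and 2266.3 RPKM in Wild-type + PLX5622 thalamus replicate 1, and to at most 766.3 RPKM in the other libraries, and their part in the results was not tested. Of 8 microglia markers, 7 or 8 were called lower with PLX5622 in each region of both genotypes. Depth, as reads recovered from the RPKM steps, was between 6.19 and 16.02 M reads per library.

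By level, the genes spanned almost the whole range of the table. Scd2, a stearoyl-CoA desaturase, averaged 341.8 RPKM over the 48 libraries, above 99.7% of all genes. Hmgcs1, the HMG-CoA synthase of the mevalonate steps, averaged 84.3 RPKM. The desaturases Fads2, Fads1 and Scd1 read 56.5, 55.6 and 54.4 RPKM, and the regulator Srebf2 read 51.3 RPKM. Among the last steps of cholesterol synthesis, levels ran between 6.47 RPKM for Ebp and Hsd17b7 and 41.4 RPKM for Msmo1. Idi1, which interconverts the isoprenoid units, was the lowest at 0.423 RPKM, and it also varied most between replicates, with a within-group CV of 32.7%. Mouse Idi1 has a close relative, Idi2, and Scd1 and Scd2 belong to 1 gene family. How reads that fit several members of a family were counted is not given in the sources used here.

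Promoters are shown for 4 of the genes, Hmgcs1, Mvd, Msmo1 and Nsdhl, because the last 3 were called higher with PLX5622 in 5xFAD hippocampus and the first holds both motifs. Sequences are from RefSeq (GRCm38.p6), 250 bases before to 50 bases after the gene start, 5′ to 3′ on the strand of the gene. Capitals mark the CCAAT box on either strand (ATTGG on the other) and the sterol regulatory core TCACNCCAC on either strand, and no match of one overlaps a match of the other in the windows shown. The windows are chr13:119690101-119690400 (+) for Hmgcs1, chr8:122443373-122443672 (−) for Mvd, chr8:64733529-64733828 (−) for Msmo1 and chrX:72918271-72918570 (+) for Nsdhl.
Hmgcs1: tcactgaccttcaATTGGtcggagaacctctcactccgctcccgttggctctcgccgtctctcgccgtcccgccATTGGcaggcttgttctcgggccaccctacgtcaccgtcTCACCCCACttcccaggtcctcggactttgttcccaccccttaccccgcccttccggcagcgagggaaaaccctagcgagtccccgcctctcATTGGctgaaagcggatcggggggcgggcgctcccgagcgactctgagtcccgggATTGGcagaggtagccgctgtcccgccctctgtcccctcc
Mvd: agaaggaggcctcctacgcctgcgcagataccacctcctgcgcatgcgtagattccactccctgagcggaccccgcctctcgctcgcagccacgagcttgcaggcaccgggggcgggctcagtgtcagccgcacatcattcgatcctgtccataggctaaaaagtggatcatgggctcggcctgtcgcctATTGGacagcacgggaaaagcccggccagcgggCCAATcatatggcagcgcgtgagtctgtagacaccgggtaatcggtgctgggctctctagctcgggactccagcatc
Msmo1: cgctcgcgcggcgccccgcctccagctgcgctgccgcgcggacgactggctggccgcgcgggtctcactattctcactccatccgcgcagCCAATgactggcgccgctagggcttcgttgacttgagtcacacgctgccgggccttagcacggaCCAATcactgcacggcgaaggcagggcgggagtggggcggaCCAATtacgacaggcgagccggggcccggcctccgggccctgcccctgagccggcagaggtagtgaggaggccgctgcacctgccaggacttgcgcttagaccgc
Nsdhl: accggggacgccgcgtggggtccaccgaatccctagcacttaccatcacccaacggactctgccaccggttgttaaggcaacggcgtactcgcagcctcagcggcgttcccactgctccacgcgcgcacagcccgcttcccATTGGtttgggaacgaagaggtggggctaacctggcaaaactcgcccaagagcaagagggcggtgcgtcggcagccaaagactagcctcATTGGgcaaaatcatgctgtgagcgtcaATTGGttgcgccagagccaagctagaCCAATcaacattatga
The CCAAT box occurs 4 times in the Hmgcs1 window, 2 times in Mvd, 3 times in Msmo1 and 4 times in Nsdhl. Cyp51, Hsd17b7, Sc5d and Insig1 were called in the same comparison, and their windows, not shown, hold 1, 3, 1 and 1. A window was found for 27 of the 34 genes, and none for Fdps, Fdft1, Sqle, Stard4, Scd1, Scd2 and Fads1. Of the 27, 21 held at least 1 CCAAT box, against 37.4% of all 32851 windows, and 7 held at least 3, against 3.37% of all windows. The 7 are Hmgcs1, Mvk, Msmo1, Nsdhl, Hsd17b7, Insig2 and Fasn. The core TCACNCCAC was in 1 of the 27, that of Hmgcs1, and in 1.24% of all windows. All windows were not limited to the 16014 genes of the RPKM table, so they are not a background of genes with RNA here. A match describes the letters of the window only.

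In the hippocampus of 5xFAD mice, 7 of the 18 sterol enzymes and the regulator Insig1 rose with PLX5622, and the other 11 sterol enzymes did not pass the test. The count of 8 was between 1 and 16 when 1 library was left out, and 0 with hippocampus fitted alone or without the libraries of high Xist. Limma called 8 of the 34 genes higher and 0 lower in 5xFAD + PLX5622 hippocampus against 5xFAD hippocampus, where a call is an adjusted p under 0.05. Over all 15975 genes tested, 2.96% were called in either direction and 0.689% were called higher. The 8 are Mvd of the mevalonate steps, Sqle of squalene to lanosterol, the lanosterol enzymes Cyp51, Msmo1, Nsdhl, Hsd17b7 and Sc5d, and the regulator Insig1. On the scale of log2(RPKM + 0.1), used for every fold change here, the median was 0.29 over the 34 genes (30 above 0) and 0.02 over all genes. More RNA per cell and more cells of a type that expresses a gene cannot be told apart in bulk tissue.

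Sc5d (mm10 chr9:42251592-42264300), whose product makes the double bond that turns lathosterol into the precursor of cholesterol, gave the smallest p. It read 32.7, 28.5, 28.2 and 31.8 RPKM in 5xFAD + PLX5622 hippocampus, against 23.6, 24.2, 20.9 and 27.1 RPKM in 5xFAD hippocampus. It read 20.1, 21.7, 24.8 and 25.6 RPKM in Wild-type + PLX5622 hippocampus and 22.1, 21.7, 24.5 and 24.8 RPKM in Wild-type hippocampus. Every treated 5xFAD library lay above every library of the other 3 groups. The log2 fold change with PLX5622 in 5xFAD was 0.34 (SE 0.07, limma adjusted p = 0.00155, n = 4 each). Sc5d stayed called when any 1 of the 8 libraries was left out (0.28 to 0.40, largest limma adjusted p = 0.0154).

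Sqle (mm10 chr15:59315092-59331193) encodes squalene epoxidase, the first oxygen-requiring step of the pathway. It read 40.6, 30.2, 22.4 and 29.0 RPKM in 5xFAD + PLX5622 hippocampus, against 21.6, 23.1, 13.0 and 26.7 RPKM in 5xFAD hippocampus. Replicate 1 was the highest treated library and replicate 3 the lowest untreated one, and the groups overlapped (log2 fold change 0.55, SE 0.14, limma adjusted p = 0.0129). In Wild-type + PLX5622 hippocampus Sqle read 20.8, 18.7, 22.2 and 21.1 RPKM, and in Wild-type hippocampus 18, 19.7, 21.3 and 19.3 RPKM. All 4 treated 5xFAD libraries were above these 8, the lowest of them only just.

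Mvd, which decarboxylates mevalonate pyrophosphate to the first isoprenoid unit, read 13.7, 8.46, 6.51 and 9.43 RPKM in 5xFAD + PLX5622 hippocampus, against 5.32, 5.63, 3.97 and 8.31 RPKM in 5xFAD hippocampus. In Wild-type + PLX5622 hippocampus it read 5.22, 4.75, 4.79 and 6.37 RPKM, and in Wild-type hippocampus 5.10, 6.40, 5.06 and 4.46 RPKM. In 5xFAD its log2 fold change with PLX5622 was 0.70 (SE 0.18, limma adjusted p = 0.013), and 1 untreated 5xFAD library overlapped the treated ones. Nsdhl, which removes a methyl group of lanosterol as carbon dioxide, read 18.5, 11.4, 11.4 and 10.7 RPKM in 5xFAD + PLX5622 hippocampus, against 8.14, 10.0, 6.39 and 11.5 RPKM in 5xFAD hippocampus. Its log2 fold change was 0.52 (SE 0.145, limma adjusted p = 0.0263), replicate 1 stood above the other 3 treated libraries, and an untreated library overlapped them. In Wild-type + PLX5622 hippocampus Nsdhl read 8.84, 7.01, 9.80 and 9.11 RPKM, and in Wild-type hippocampus 6.41, 9.98, 7.19 and 8.96 RPKM.

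**Figure D1:**
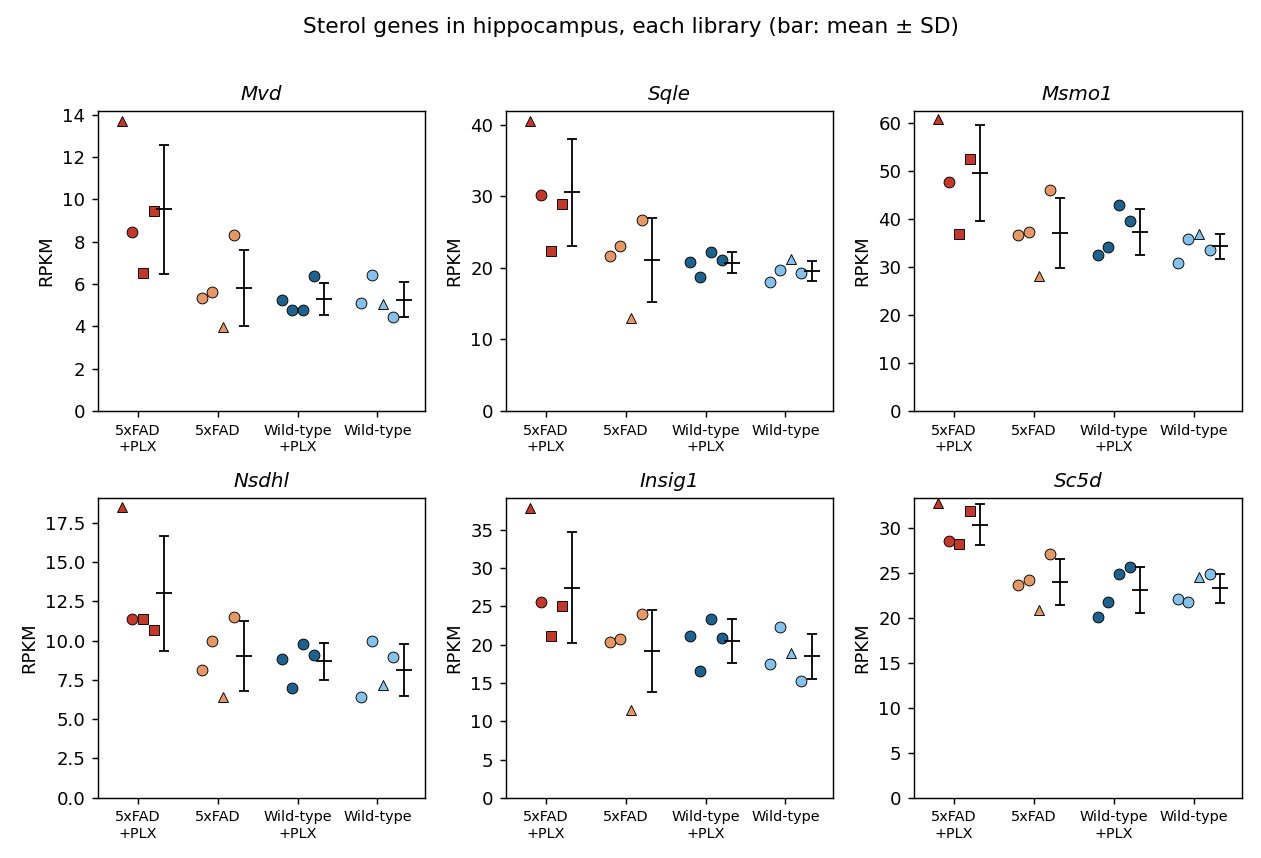
Level in RPKM (y axis, linear from 0) of 6 sterol genes in each hippocampal library, 4 per group, in 5xFAD + PLX5622, 5xFAD, Wild-type + PLX5622 and Wild-type mice (x axis). Bars are mean ± SD, squares are the 2 libraries with liver transcripts and triangles the library of a group with Xist above 20 RPKM. Sc5d shows 4 treated 5xFAD libraries at 28.2 to 32.7 RPKM, above all others, and in the other 5 panels the treated and untreated 5xFAD libraries overlap.

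The other 4 called genes were 3 lanosterol enzymes and a regulator. Cyp51, the lanosterol demethylase, averaged 17 ± 1.97 RPKM in 5xFAD + PLX5622 hippocampus and 13.5 ± 2.35 RPKM in 5xFAD hippocampus (SD, n = 4 each, log2 fold change 0.34, limma adjusted p = 0.034). Msmo1, which oxidizes the methyl groups that Nsdhl then removes, averaged 49.4 ± 10.0 RPKM in treated and 37.0 ± 7.28 RPKM in untreated 5xFAD hippocampus (0.42, limma adjusted p = 0.0413, n = 4 each). Hsd17b7, the ketoreductase that follows Nsdhl, averaged 8.07 ± 1.73 RPKM in treated and 6.00 ± 1.18 RPKM in untreated 5xFAD hippocampus (0.42, limma adjusted p = 0.0436, n = 4 each). Insig1, itself a target of SREBPs and the brake on them, averaged 27.4 ± 7.30 RPKM in treated and 19.2 ± 5.36 RPKM in untreated 5xFAD hippocampus (0.53, limma adjusted p = 0.0313, n = 4 each). By an exact two-sided permutation test of the 4 against 4 libraries, p was 0.0286 for Sc5d, the smallest this design can give, and between 0.0571 and 0.114 for the other 7 genes.

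By role, the medians were higher for the sterol enzymes than for the fatty acid genes. All 18 sterol enzymes between Acat2 and Dhcr7 were above 0, and the median log2 fold change was 0.41 for the mevalonate steps, 0.32 for squalene to lanosterol and 0.34 for lanosterol to cholesterol. The next genes below the threshold were Fdps, which makes farnesyl pyrophosphate (0.49, limma adjusted p = 0.0504), and Srebf2 (0.26, limma adjusted p = 0.0526). Idi1 had the largest fold change of the 34 (0.81, limma adjusted p = 0.107) at a level under 1 RPKM in every library. The 4 genes of acetyl-CoA supply and chain synthesis had a median of 0.18 and 0 calls, and the 6 elongases and desaturases a median of 0.02 and 0 calls. The summed level of the 8 lanosterol enzymes was 146.6 ± 19.0 RPKM in 5xFAD + PLX5622 hippocampus and 114.5 ± 19.8 RPKM in 5xFAD hippocampus (SD, n = 4 each). It was 114.4 ± 9.62 RPKM in Wild-type + PLX5622 and 108.5 ± 5.18 RPKM in Wild-type hippocampus.

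The 11 sterol enzymes not called in this comparison had values between 0.13 and 0.81. Acat2, which joins acetyl-CoA units at the start of the pathway, was at 0.33 (limma adjusted p = 0.213), and Hmgcs1 was at 0.41 (limma adjusted p = 0.106). The kinases Mvk and Pmvk, which phosphorylate mevalonate in turn, were at 0.41 and 0.29. Fdft1, the squalene synthase, was at 0.32, and Lss, which closes squalene epoxide into lanosterol, at 0.29 (limma adjusted p = 0.0883). Tm7sf2, a sterol reductase, was at 0.21, Ebp, a sterol isomerase, at 0.13, and Dhcr7, the reductase of the last step, at 0.25. Among the regulators, Scap was at 0.11 and Insig2 at 0.00, while Stard4 was at 0.50 (limma adjusted p = 0.0737). None of these passed the threshold.

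The number of calls turned on single libraries. Leaving out 5xFAD replicate 3, the lowest of its group in 22 of the 34 genes, left 1 call, and leaving out 5xFAD + PLX5622 replicate 1, the highest of its group in 21, also left 1, in both cases Sc5d. Without 5xFAD replicate 1 there were 4 calls and without 5xFAD + PLX5622 replicate 2 there were 5. Without 5xFAD replicate 4, the highest of its group in 25 genes, or without 5xFAD + PLX5622 replicate 3, there were 16. Counts over all genes without these single libraries are not given here, so these changes are not shown to be particular to the 34 genes. With all libraries of high Xist left out, which removes both of the first 2 named here, 0 were called and the median was 0.13. With the hippocampus fitted alone 0 were called, against 2.1% of all genes, with the same fold changes and limma adjusted p between 0.0534 (Sc5d) and 0.25 (Hsd17b7). With the log2 level of Xist as a covariate 8 were called. Voom with limma on the recovered reads called 11 of the 34 (515 of all genes). The mature oligodendrocyte markers had a median log2 fold change of 0.02 in this comparison, and 6 genes were called with their level as a covariate. The 8 neuron markers had a median of 0.18 and the 8 astrocyte markers a median of 0.10, with 0 called in either list. The neuron markers summed to 2530.2, 1985.0, 1629.5 and 1741.6 RPKM in 5xFAD + PLX5622 hippocampus, against 1596.6, 1614.9, 1338.6 and 1929.6 RPKM in 5xFAD hippocampus. Their highest and lowest libraries in both groups, treated replicates 1 and 3 and untreated replicates 4 and 3, were the ones most often highest and lowest among the 34 genes. The part of neuronal RNA in the fold changes was not tested.

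Without replicates 3 and 4 of 5xFAD + PLX5622 hippocampus, the 2 libraries with liver transcripts, 17 genes were called higher with PLX5622 and 0 lower. Of all genes, 3.34% were then called, and the median of the 34 was 0.38. The 17 are Acat2, Hmgcs1, Mvk, Mvd, Idi1, Fdps, Fdft1, Sqle, Lss, Cyp51, Msmo1, Nsdhl, Hsd17b7, Sc5d, Srebf2, Insig1 and Stard4, so 14 of the 18 sterol enzymes are among them. Stard4, which carries sterols between membranes, had the smallest p of the 17 (0.88, SE 0.177, limma adjusted p = 0.00114). Sqle was at 0.77 (limma adjusted p = 0.00155), Mvd at 0.93 (limma adjusted p = 0.00422) and Insig1 at 0.75 (limma adjusted p = 0.00757). The treated group then has 2 libraries, 1 of them replicate 1, and the spread is taken over all groups.

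Replicate 3, the library with the most Alb, was at the edge of its group in most genes. It was the lowest treated library in 18 of the 34 genes and the highest in 7, namely Srebf1, Scap, Elovl5, Scd1, Scd2, Fads1 and Fads2. Scd1, the desaturase that liver also expresses at high level, read 45.2, 40.7, 111.9 and 57.0 RPKM in 5xFAD + PLX5622 hippocampus, against 45.0, 53.4, 48.4 and 56.5 RPKM in 5xFAD hippocampus. Replicate 3 alone was far above the rest. The part of liver RNA in that value was not tested.

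In cortex, 31 of the 34 genes were above 0 with PLX5622 in 5xFAD mice and the median log2 fold change was 0.20, but limma called 0 of them (8 at an unadjusted p under 0.05, and 0 with voom on recovered reads). Over all 15975 genes 2.13% were called, 13 of them higher and 327 lower, and the median was 0.01. In 14 genes every 5xFAD + PLX5622 library was above every 5xFAD library, against 1.95% of all genes tested, and in 0 genes below. The 14 are Acat2, Mvd, Fdps, Fdft1, Sqle, Lss, Nsdhl, Hsd17b7, Sc5d and Dhcr7 of the 18 sterol enzymes, the regulators Srebf2 and Insig1, the carrier Stard4, and Fasn, the fatty acid synthase. In hippocampus 1 gene, Sc5d, was so separated, against 2.69% of all genes.

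Cortical values are given for 2 of these genes, chosen after they had been seen. Sqle read 35.5, 29.9, 32.6 and 35.1 RPKM in 5xFAD + PLX5622 cortex, against 25.0, 23.5, 27.1 and 28.2 RPKM in 5xFAD cortex. In Wild-type + PLX5622 cortex it read 22.6, 23.6, 24.2 and 24.9 RPKM, and in Wild-type cortex 23.2, 21.9, 24.5 and 24.0 RPKM. The treated 5xFAD libraries stood above all 12 others, with less spread than in hippocampus. Insig1 read 28.4, 27.5, 24.1 and 27.1 RPKM in 5xFAD + PLX5622 cortex, against 21.5, 22.3, 20.1 and 20.5 RPKM in 5xFAD cortex. In Wild-type + PLX5622 cortex it read 16.6, 16.5, 19.2 and 20.4 RPKM and in Wild-type cortex 22.7, 20.9, 17.2 and 16.4 RPKM. Here too every treated 5xFAD library was above the rest.

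The cortical count depended on which libraries set the spread. With the 16 cortical libraries fitted alone, 6 genes were called higher with PLX5622 in 5xFAD, and 2.27% of all genes were called. The 6 are Hmgcs1 (0.29), Fdps (0.44), Fdft1 (0.29), Sqle (0.36), Msmo1 (0.35) and Sc5d (0.20). Their limma adjusted p was between 0.00397 for Sqle and 0.0426 for Msmo1. Without 5xFAD cortex replicate 4, 1 gene was called in the fit of all libraries. Mature oligodendrocyte markers summed to between 768.9 and 1370.3 RPKM in 5xFAD + PLX5622 cortex and between 789.9 and 1128.2 RPKM in 5xFAD cortex.

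**Figure D2:**
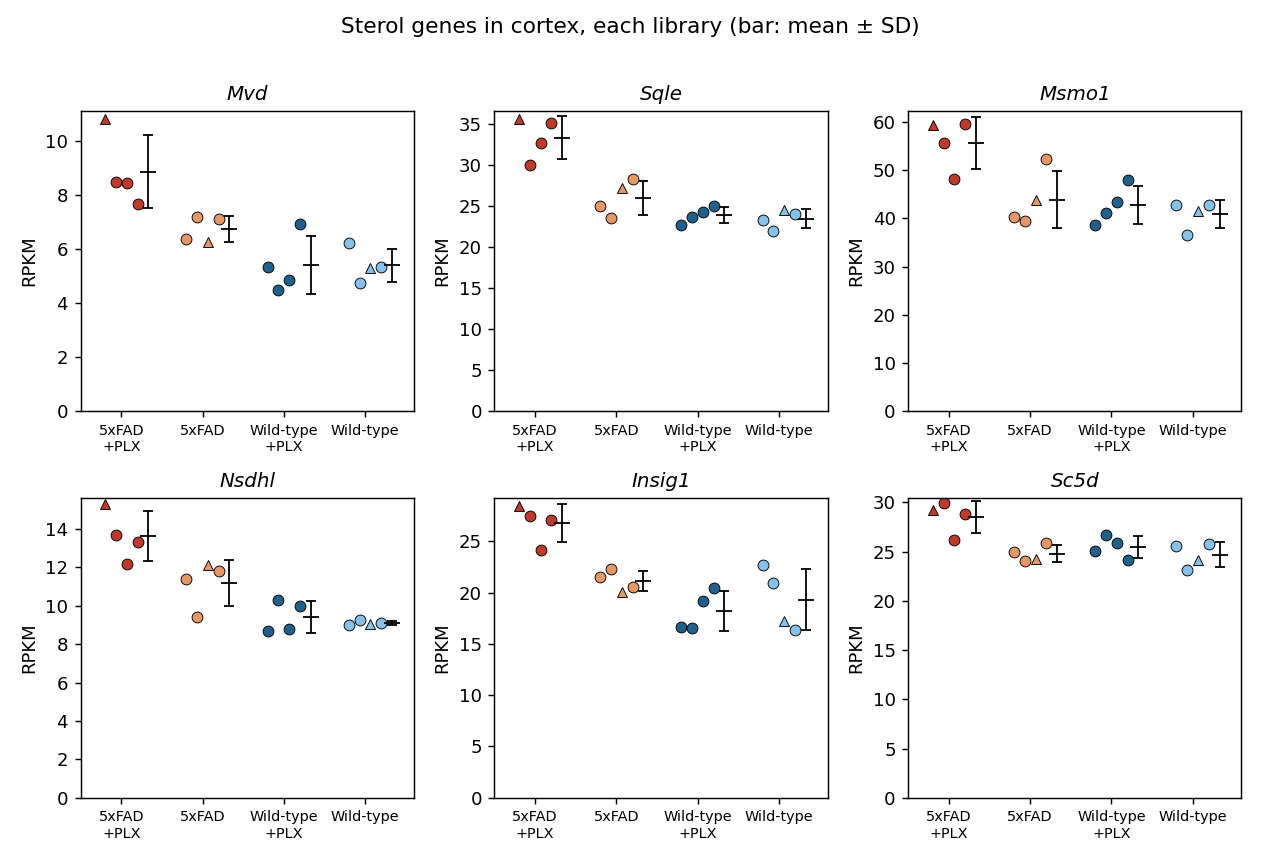
Level in RPKM (y axis, linear from 0) of the same 6 genes in each cortical library, 4 per group, in 5xFAD + PLX5622, 5xFAD, Wild-type + PLX5622 and Wild-type mice (x axis). Bars are mean ± SD and triangles mark the library of a group with Xist above 20 RPKM. Treated 5xFAD libraries lie above untreated ones without overlap for Mvd, Sqle, Nsdhl, Insig1 and Sc5d, and overlap them for Msmo1.

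In thalamus, 1 gene was called with PLX5622 in 5xFAD mice, and it was higher. Of all 15975 genes 2.76% were called, 55 of them higher and 386 lower. The 1 called of the 34 was Elovl5 (mm10 chr9:77917365-77984519), an elongase of polyunsaturated fatty acids. It read 35.8, 32.4, 38.3 and 33.8 RPKM in 5xFAD + PLX5622 thalamus, against 24.7, 31.4, 27.2 and 29.7 RPKM in 5xFAD thalamus. All 4 treated libraries were above the untreated ones (0.31, SE 0.096, limma adjusted p = 0.0486, exact permutation p = 0.0286, n = 4 each). The call was close to its threshold and was lost when any of 5xFAD replicates 1, 3 and 4 or 5xFAD + PLX5622 replicates 1, 3 and 4 was left out (0.25 to 0.37 over the 8 left-out libraries). Srebf1 was near it (0.52, limma adjusted p = 0.0539). The sterol enzymes moved little, with a median of 0.07 for the mevalonate steps, -0.04 for squalene to lanosterol and 0.07 for lanosterol to cholesterol. Mature oligodendrocyte markers had a median of 0.43 in the same comparison with 0 of 12 called, and Elovl5 was not called with their level as a covariate (0.19, limma adjusted p = 0.264). Without 5xFAD thalamus replicate 2, 3 genes were called.

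The difference between regions was tested directly. Taking the effect of PLX5622 in 5xFAD hippocampus minus that in 5xFAD thalamus, 0 of the 34 genes were called by limma and 8 were at an unadjusted p under 0.05. Of all 15975 genes tested, 108 were called in this difference. Sqle was at 0.59 (limma adjusted p = 0.172), Nsdhl at 0.58 (limma adjusted p = 0.194) and Srebf2 at 0.33 (limma adjusted p = 0.2). Without the 2 libraries with liver transcripts, Sqle was called higher and Elovl5 lower in this difference, with 1.35% of all genes called. Between hippocampus and cortex 0 of the 34 genes were called, and so were 0 of all genes. Of the 34, 0 were at an unadjusted p under 0.05, with a median of 0.11. Without the 2 libraries with liver transcripts 0 of the 34 and 0 of all genes were called. Of the 34, 5 were then at an unadjusted p under 0.05 (Idi1, Sqle, Srebf2, Stard4 and Elovl5), with a median of 0.22. For the genotype effect and the effect of PLX5622 in Wild-type mice, limma also called 0 of the 34 between any pair of regions, with 0 to 3 at an unadjusted p under 0.05. Of all genes, 41 were called for PLX5622 in Wild-type hippocampus minus thalamus and 0 in each of the other differences of these 2 effects.

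In Wild-type mice few of these genes were called with PLX5622. Limma called 0 of 34 in cortex against 1.38% of all genes, 0 in hippocampus against 2.77% and 1 in thalamus against 3.84%. Of all 15975 genes, 6, 53 and 87 were called higher and 214, 390 and 527 lower. At an unadjusted p under 0.05 there were 0, 7 and 6 of the 34, and voom on recovered reads called 0, 0 and 1 of them. Medians of the 34 were 0.03, 0.09 and 0.14. The thalamic call was Scd2, which read 494.4, 455.3, 423.7 and 565.4 RPKM in Wild-type + PLX5622 thalamus, against 334.7, 360.3, 452.2 and 436.5 RPKM in Wild-type thalamus. The groups overlapped by 1 library (0.29, SE 0.086, limma adjusted p = 0.0343, exact permutation p = 0.114, n = 4 each). The call was lost without Wild-type replicate 1 or 2 or Wild-type + PLX5622 replicate 1 or 4, and with the oligodendrocyte level as a covariate (0.21, limma adjusted p = 0.155). Oligodendrocyte markers summed to between 1853.1 and 2210.7 RPKM in Wild-type + PLX5622 thalamus and between 1127.8 and 1934.4 RPKM in Wild-type thalamus. With thalamus fitted alone the call was Insig1 (0.38, limma adjusted p = 0.0222) and not Scd2, with 1.97% of all genes called.

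A low value stood out in treated Wild-type hippocampus, and others occurred in thalamus. Elovl6, the elongase of palmitate, read 3.10, 11.1, 11.2 and 10.0 RPKM in Wild-type + PLX5622 hippocampus, against 12.7, 11.6, 13.7 and 12.9 RPKM in Wild-type hippocampus. Its log2 fold change of -0.68 was not called. Replicate 1 was far below the other 3 treated libraries, and these too lay below every untreated one, so the groups did not overlap. Of all genes, 8.32% were lower without overlap in this comparison. Untreated 5xFAD hippocampus, at 10.5, 11.3, 8.94 and 7.70 RPKM, also lay wholly below Wild-type hippocampus, as did 6.83% of all genes. In replicate 1 of Wild-type + PLX5622 hippocampus log2 levels rose by 0.454 for each 10% of GC content relative to other libraries of the region, the steepest slope of the 48. Elovl6 also read 5.31 RPKM in Wild-type thalamus replicate 4 and 7.78 RPKM in 5xFAD thalamus replicate 2, at slopes of 0.392 and 0.356. In Wild-type + PLX5622 thalamus it read 7.92 and 5.38 RPKM in replicates 1 and 4, at slopes of 0.315 and 0.428. The other thalamus libraries read between 10.2 and 17.1 RPKM. The part of GC content in these values was not tested.

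**Figure D3:**
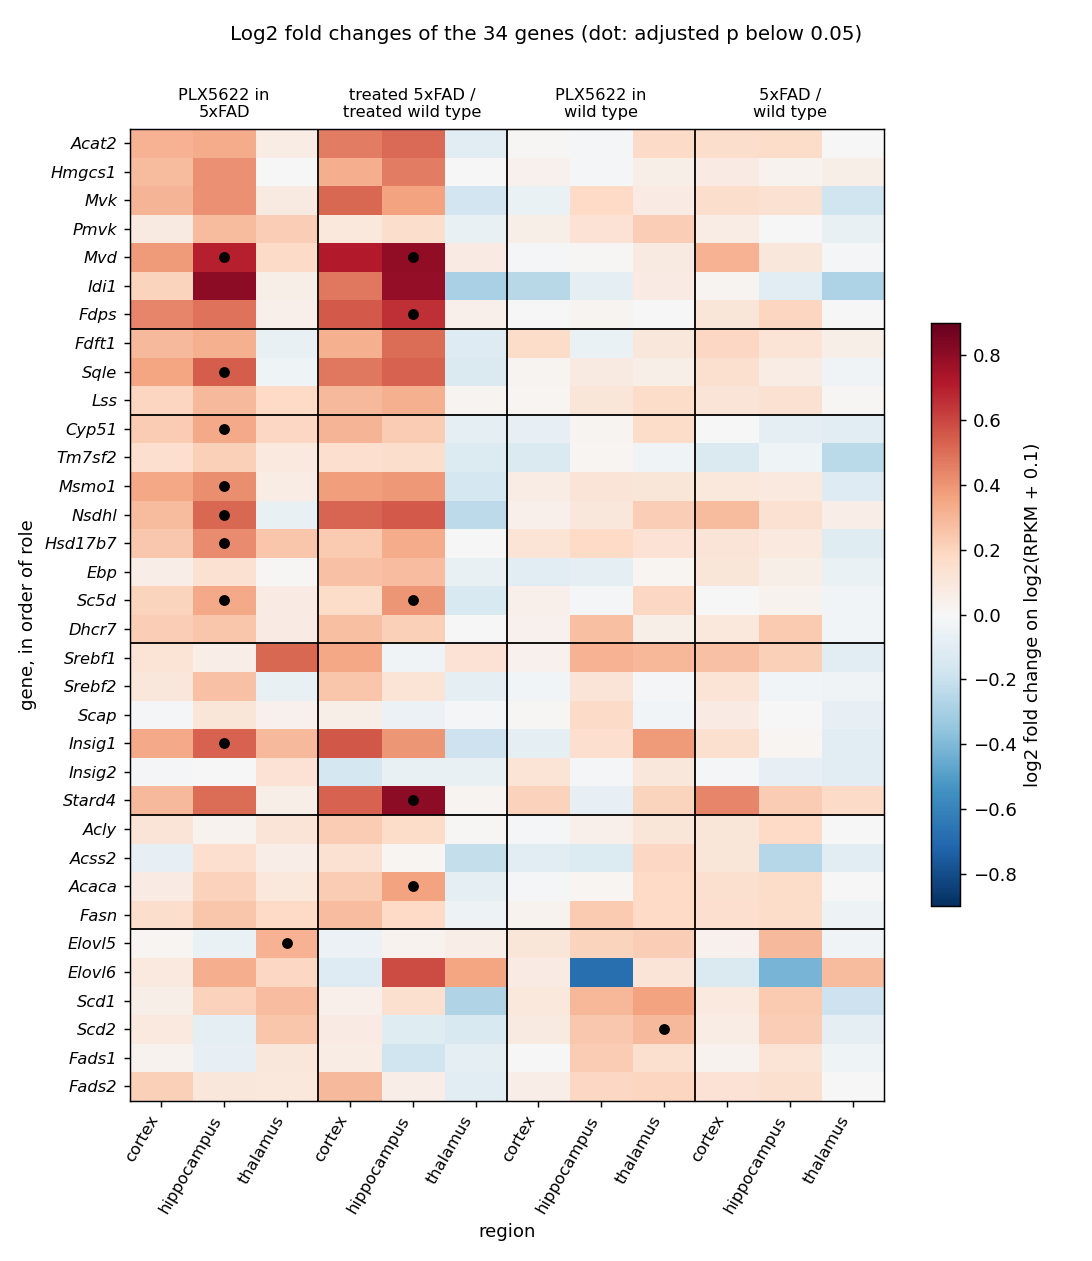
Log2 fold change (colour, from log2(RPKM + 0.1), red higher and blue lower) of all 34 genes (rows, ordered by role) in 3 regions for 4 comparisons (columns), with a dot for an adjusted p below 0.05. The sterol rows of cortex and hippocampus are red for PLX5622 in 5xFAD and for treated 5xFAD over treated Wild-type mice, where 8 and 5 hippocampal genes and 0 cortical genes carry a dot.

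Between genotypes without treatment none of these genes was called. Limma called 0 of 34 in 5xFAD against Wild-type cortex (0.732% of all genes called), 0 in hippocampus (1.96%) and 0 in thalamus (0.413%). At an unadjusted p under 0.05 there were 1, 5 and 0, and voom on recovered reads called 0 in each. Without Wild-type hippocampus replicate 1, 1 gene was called in hippocampus. Medians were 0.11 in cortex, 0.11 in hippocampus and -0.04 in thalamus, and 31, 26 and 11 of the 34 genes were above 0. Of all genes, 50.2%, 48.2% and 49.7% were above 0. Stard4 had the smallest unadjusted p in cortex, where it read 11.4, 10.8, 11.2 and 12.9 RPKM in 5xFAD mice, against 9.27, 8.82, 8.59 and 7.38 RPKM in Wild-type mice. The groups did not overlap, and with cortex fitted alone Stard4 was called (0.44, SE 0.089, limma adjusted p = 0.00696), with 0.901% of all genes called. Without overlap, 6 genes were higher in 5xFAD cortex (Mvd, Nsdhl, Hsd17b7, Srebf1, Stard4 and Acly) and 0 lower, against 3.44% and 1.67% of all genes. In hippocampus 2 were so higher (3.92% of all genes) and 1 lower (6.83%). In thalamus 0 were so higher (1.41%) and 1 lower (0.526%).

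Treated mice of the 2 genotypes were compared in the same way. In 5xFAD + PLX5622 against Wild-type + PLX5622 hippocampus 5 genes were called higher and 0 lower, against 0.808% of all genes called and 0.764% called higher. They are Mvd (0.80, limma adjusted p = 0.0126), Fdps (0.66, limma adjusted p = 0.0168), Sc5d (0.40, limma adjusted p = 0.000518), Stard4 (0.80, limma adjusted p = 0.0051) and Acaca, the acetyl-CoA carboxylase that opens fatty acid synthesis (0.36, limma adjusted p = 0.00347). The median of the 34 was 0.30, and 9 genes (Mvd, Sqle, Lss, Nsdhl, Sc5d, Dhcr7, Stard4, Acaca and Fasn) did not overlap between the groups, all higher in treated 5xFAD mice, against 2.59% of all genes. These 4 treated 5xFAD libraries are the ones used above, so the 2 comparisons are not independent. The count was 3 without 5xFAD + PLX5622 replicate 1 or Wild-type + PLX5622 replicate 2 and 10 without 5xFAD + PLX5622 replicate 3. With hippocampus fitted alone the count was 0, against 0.682% of all genes. Without both liver libraries the count was 11, with 0.732% of all genes called, Stard4 leading (1.19, limma adjusted p = 0.000108).

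Stard4 read 18.5, 12.4, 7.80 and 10.1 RPKM in 5xFAD + PLX5622 hippocampus, against 6.37, 5.25, 7.62 and 7.41 RPKM in Wild-type + PLX5622 hippocampus. The groups did not overlap, though replicate 3 of the treated 5xFAD mice came close. Acaca read 8.42, 7.30, 7.39 and 7.69 RPKM in 5xFAD + PLX5622 hippocampus, against 6.36, 5.61, 5.95 and 5.99 RPKM in Wild-type + PLX5622 hippocampus, again without overlap and with a smaller range. Fdps read 21, 12.4, 9.52 and 12.4 RPKM in 5xFAD + PLX5622 hippocampus, against 9.56, 6.99, 9.14 and 8.07 RPKM in Wild-type + PLX5622 hippocampus, where 1 library exceeded the lowest treated 5xFAD library.

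In cortex 0 of the 34 were called in 5xFAD + PLX5622 against Wild-type + PLX5622 mice (0.0626% of all genes called). Of the 34, 23 were at an unadjusted p under 0.05, for which the share of all genes is not given here. The median was 0.27, and voom called 0. In 18 genes every treated 5xFAD library was above every treated Wild-type library, against 3.25% of all genes, and 11 of the 18 are sterol enzymes. The others are Srebf2, Insig1, Stard4, Acly, Acaca, Fasn and Fads2. With cortex fitted alone 6 were called, against 0.106% of all genes. They are Fdps, Sqle, Nsdhl, Insig1, Stard4 and Acly, the ATP citrate lyase that supplies acetyl-CoA. Their limma adjusted p was between 0.00665 for Sqle and 0.0467 for Acly. In thalamus 0 were called (0.0376% of all genes, 1 of the 34 at an unadjusted p under 0.05, 0 by voom), with a median of -0.08.

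The effect of PLX5622 was also compared between genotypes, 5xFAD minus Wild-type. Limma called 0 of 34 in cortex (0.0% of all genes called), 0 in hippocampus (0.332%) and 0 in thalamus (0.00626%), and voom called 0 in each. At an unadjusted p under 0.05 there were 2, 12 and 0. In hippocampus the median was 0.23, and Sc5d was nearest to the threshold (0.36, SE 0.1, limma adjusted p = 0.0772), followed by Mvd (0.69, limma adjusted p = 0.182). Without Wild-type + PLX5622 hippocampus replicate 3, 1 gene was called. A different response of the genotypes in hippocampus was thus not shown for any of the 34 genes with all libraries in the fit. Without the 2 libraries with liver transcripts limma again called 0 of 34, with 22 at an unadjusted p under 0.05, a median of 0.34 and 0.156% of all genes called. Stard4 was then nearest to the threshold (0.96, limma adjusted p = 0.0637), followed by Elovl5 in the other direction (-0.49, limma adjusted p = 0.0712).

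Of 30 other genes of the same pathways, listed by name and all tested in the same fit, 0 were called in 5xFAD against Wild-type mice or with PLX5622 in Wild-type mice in any region. With PLX5622 in 5xFAD hippocampus 3 of the 30 were called higher and 0 lower, against the 0.689% of all genes called higher, and 1 of the 3 was Aacs, the acetoacetyl-CoA synthetase (0.63, limma adjusted p = 0.00108). In 5xFAD cortex 1 of the 30 was called higher and 0 lower, against 13 higher and 327 lower of all 15975 genes. In 5xFAD thalamus 0 of the 30 were called higher and 1 lower, against 55 higher and 386 lower of all genes. That 1 was Mylip, a ubiquitin ligase induced by liver X receptors (-0.54, limma adjusted p = 0.01).

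In untreated mice, more of the genes were called between most regions than between genotypes, and so it was over all genes. Of all genes, 4.31% to 18.2% were called between regions and 0.413% to 1.96% between genotypes. In Wild-type mice 2 genes were called higher in hippocampus than in cortex (4.31% of all genes called): Srebf1 (0.60, limma adjusted p = 0.0198) and Acss2, a synthetase that makes acetyl-CoA from acetate (0.32, limma adjusted p = 0.0223). Lower in hippocampus than in thalamus were 5 genes, Acly, Acaca, Elovl5, Scd1 and Scd2, with log2 fold changes between -0.64 and -0.26 (11.3% of all genes called). Between cortex and thalamus 9 were called (18.2% of all genes), Hmgcs1 higher in cortex (0.49) and Srebf1, Scap, Acss2, Fasn, Elovl5, Scd1, Scd2 and Fads2 lower. In 5xFAD mice the counts were 2 higher in hippocampus than in cortex (Srebf1 and Scd2, 5.36% of all genes), 0 between hippocampus and thalamus (5.49%, 3 of the 34 at an unadjusted p under 0.05, 0 by voom), and 7 between cortex and thalamus (12%). Of those 7, Hmgcs1 and Srebf2 were higher and Srebf1, Elovl5, Scd1, Scd2 and Fads2 lower in cortex.

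The widest regional ranges in Wild-type mice were those of Srebf1, Scd1, Scd2, Fads2, Hmgcs1 and Idi1. Srebf1 read 14.7, 13.4, 17.7 and 14.4 RPKM in hippocampus, 10.3, 10.3, 10.6 and 8.25 RPKM in cortex and 15.3, 17, 23.6 and 19.9 RPKM in thalamus. Cortex was below both other regions without overlap, and hippocampus and thalamus overlapped. Scd1 read 43.4, 42.8, 47.8 and 38.4 RPKM in hippocampus, 38.6, 35.4, 35.7 and 36.4 RPKM in cortex and 52.7, 62.7, 83.2 and 73.1 RPKM in thalamus. Every thalamus library was above every library of the other regions. Scd2 read 295.2, 275.2, 301.3 and 290.5 RPKM in hippocampus, 252.3, 269.2, 261.2 and 274.4 RPKM in cortex and 334.7, 360.3, 452.2 and 436.5 RPKM in thalamus, with no overlap between any of the 3 regions (cortex against thalamus -0.57, SE 0.086, limma adjusted p = 1.84e-05).

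Fads2, the delta-6 desaturase of polyunsaturated fatty acids, read 52.5, 39.7, 58.6 and 48.8 RPKM in hippocampus, 38.7, 42.6, 49.2 and 42.0 RPKM in cortex and 55.1, 60.2, 71.7 and 68.0 RPKM in thalamus. Hippocampus overlapped both others, and cortex was below thalamus in every library. Hmgcs1 ran the other way, at 64.2, 81.6, 73.9 and 71.7 RPKM in hippocampus, 95.9, 88.0, 93.0 and 98.8 RPKM in cortex and 71.4, 75.7, 65.6 and 56.7 RPKM in thalamus, where cortex was highest without overlap. Idi1 read 0.189 to 0.461 RPKM in hippocampus, 0.316 to 0.714 RPKM in cortex and 0.252 to 0.705 RPKM in thalamus, and all 3 overlapped. In 5xFAD mice the means of Scd2 were 339.3 ± 23.9 RPKM in hippocampus, 277.3 ± 16.1 RPKM in cortex and 371.5 ± 51.2 RPKM in thalamus (SD, n = 4 each).

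Mature oligodendrocyte markers were lower in cortex than in both other regions without overlap, while hippocampus lay within the range of thalamus. They summed to between 1271.7 and 1485.3 RPKM in Wild-type hippocampus, between 734.2 and 890.7 RPKM in cortex and between 1127.8 and 1934.4 RPKM in thalamus. With their level as a covariate the number of genes called was 0 for Wild-type hippocampus against cortex, 4 for Wild-type cortex against thalamus and 0 for 5xFAD cortex against thalamus. Srebf1 was then not called between Wild-type hippocampus and cortex (0.35, limma adjusted p = 0.346), nor Scd1 between Wild-type cortex and thalamus (-0.55, limma adjusted p = 0.147). The calls also moved with single libraries, between 0 and 2 for Wild-type hippocampus against cortex and between 5 and 10 for Wild-type cortex against thalamus. Without Wild-type cortex replicate 4, in which Srebf1 was lowest, there were 0 and 5 calls in these comparisons, and without replicate 2 there were 1 and 5. Cortex against thalamus also had 5 without Wild-type thalamus replicate 3 or 4, and hippocampus against cortex had 1 without Wild-type hippocampus replicate 2, 3 or 4. Hippocampus against thalamus had 3 without Wild-type hippocampus replicate 1 or Wild-type thalamus replicate 3. In 5xFAD mice, hippocampus against cortex had 0 without cortex replicate 1, 3 or 4 or hippocampus replicate 2, 1 without hippocampus replicate 1 or 3, and 4 without hippocampus replicate 4, and without that last library hippocampus against thalamus had 1. In 5xFAD cortex against thalamus there were 2 calls without cortex replicate 1 or thalamus replicate 2 or 3, and 3 without cortex replicate 3 or 4 or thalamus replicate 4.

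**Figure D4:**
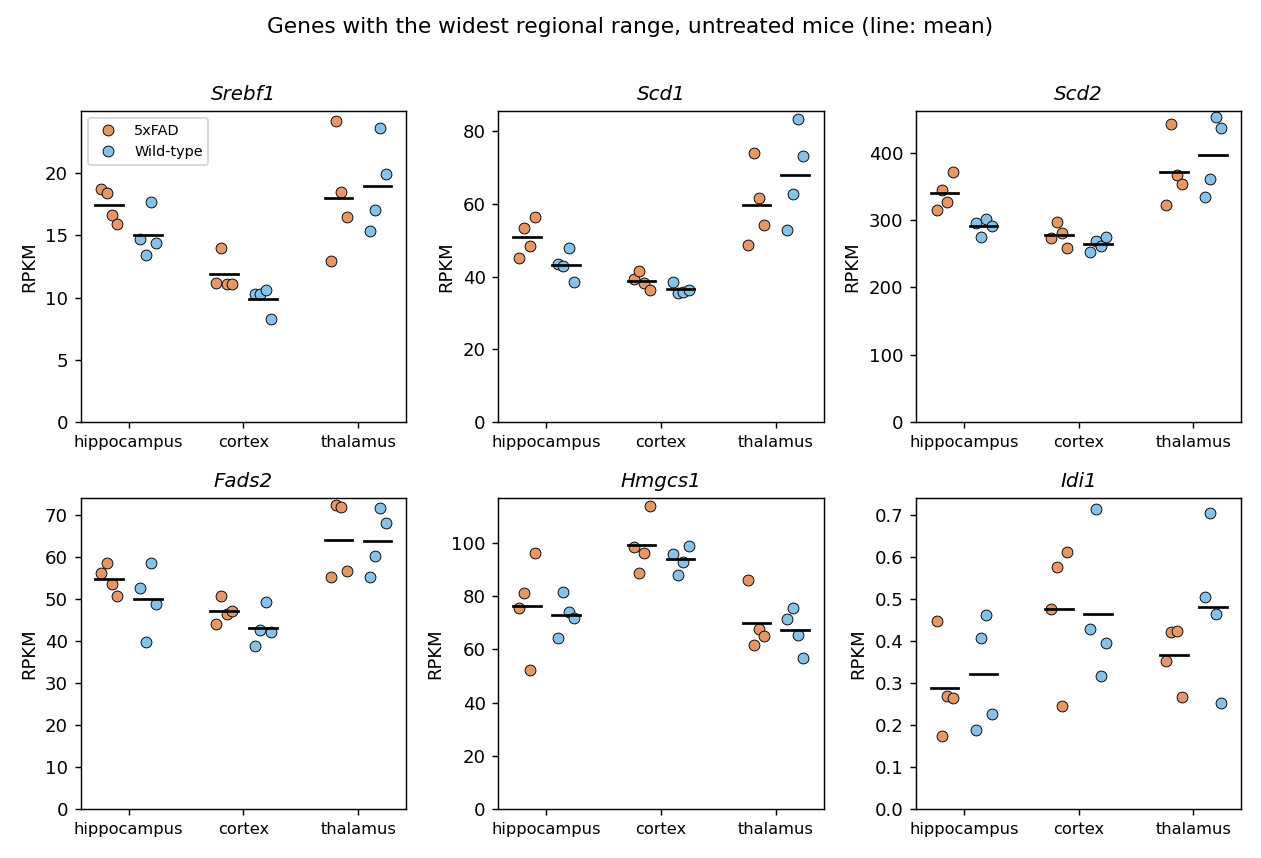
Level in RPKM (y axis, linear from 0) of the 6 genes with the widest regional range in each library of untreated mice, 5xFAD left of Wild-type, in hippocampus, cortex and thalamus (x axis). Lines are means. Srebf1, Scd1, Scd2 and Fads2 are lowest in cortex, while Hmgcs1 is highest there and Idi1 stays under 1 RPKM.

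Over 21 comparisons in the fit of all 48 libraries, 22 of the 34 genes were called at least once. The 12 called in none of them in that fit were Acat2, Mvk, Pmvk and Idi1 of the mevalonate steps, Fdft1 and Lss of squalene and lanosterol, Tm7sf2, Ebp and Dhcr7 of the lanosterol enzymes, the regulator Insig2, the elongase Elovl6 and the delta-5 desaturase Fads1. Insig2, the other brake on SCAP, read 16.0, 15.2, 15.2 and 18.6 RPKM in 5xFAD + PLX5622 hippocampus, against 17, 15.9, 17.9 and 14.4 RPKM in 5xFAD hippocampus, and the groups overlapped.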

How the data were processed

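Whole-tissue RNA of cortex, hippocampus and thalamus was sequenced as 50-base single reads. The authors aligned reads to mm10 with STAR, counted them per gene with featureCounts, dropped genes of low count and deposited RPKM (reads scaled by gene length and by library size). Tool versions are not given in the sources used here, and the labels and the methods name different library kits. Replicates are numbered libraries, so p-values measure the spread between them.

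The values were not counts, so log2(RPKM + 0.1) was fitted with limma 3.58.1 (R 4.3.3, eBayes with a trend) over all 48 libraries and 12 groups. Genes of at least 0.2 RPKM in at least 4 libraries were tested, 15975 of 16014, among them all 34 described. P-values were adjusted by Benjamini-Hochberg over the 15 genotype, PLX5622 and untreated region comparisons together, and over each other comparison by itself, with 0.05 as the threshold. Counts at an unadjusted p under 0.05 cover the 34 genes only. The share of all genes under it is not given here, so those counts have no background. Fold changes on this scale understate the change of low genes such as Idi1. Dividing by the step of 1 read gave whole reads for 100.0% of the genes within 0.05 reads, between 6.19 and 16.02 M reads per library (median 10.94 M), and voom was run on these as an alternative. Precision is limited by the 4 libraries per group. Single genes were compared by an exact two-sided permutation test.

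Per-library values were given by rule for genes called with genotype or PLX5622, up to 4 per comparison by smallest p, and for the 6 genes of widest regional range. Other genes given per library were chosen after their values were seen. The 34 genes, the 30 other pathway genes and the marker lists were chosen with earlier results of these data known. Values of some of the other pathway and marker genes are not reported here. Alternatives were 12 set beforehand, 3 added after the data were seen (libraries with Xist over 20 RPKM left out, and the GC slope or the oligodendrocyte level of a library as a covariate) and each of the 48 libraries left out in turn. The limma code was tested on simulated data. Exact tests used scipy 1.17.1 with numpy 2.4.6 under Python 3.11.15, tables pandas 2.3.3, and plots matplotlib 3.10.9.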

Additional observations from a re-analysis of the deposited data

Results flagged for a closer look

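Groups of 4 libraries were searched for a library apart. Its gap to its nearest neighbour, as a share of the whole range, had to exceed Dixon's critical value for 4. The search covered 37 groups, for genes called with genotype or PLX5622 and those of widest regional range. A library apart was found in 2 of them, and chance alone gives this in about 1 in 20 groups. Other genes given per library were not searched. Among these, Elovl6 read 3.1 RPKM in Wild-type + PLX5622 hippocampus replicate 1 and 10.0 to 11.2 RPKM in the other 3 libraries. Nsdhl read 18.5 RPKM in 5xFAD + PLX5622 hippocampus replicate 1, and the other 3 libraries read 10.7 to 11.4 RPKM (gap 0.913 of the range). This is the treated library with the lowest oligodendrocyte signal, 698.7 RPKM summed, and with Xist above 20 RPKM. Its part in the Nsdhl value was not tested, and without it Nsdhl was not called. Srebf1 read 8.25 RPKM in Wild-type cortex replicate 4, and the other 3 libraries read 10.3 to 10.6 RPKM (gap 0.86 of the range).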

How the results depend on the processing

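Of 291 counts of called genes recomputed under the alternatives, 253 stayed within 1.5 times, where 0 against 0 is taken as the same. Direction cannot be read from a count. Direction was followed for genes called with genotype or PLX5622 and those of widest regional range. Of their 397 recomputed fold changes, 0 reversed with a call in either fit. For PLX5622 in 5xFAD thalamus (1 called) the count was 0 with a pseudocount of 0.01, with rescaled libraries, with thalamus alone, with each comparison adjusted by itself, without high-Xist libraries and with the oligodendrocyte covariate. It was 2 with a pseudocount of 1 or voom and 4 with the GC slope. With the regions compared alone, counts were 1 for 5xFAD against Wild-type cortex, 6 for PLX5622 in 5xFAD cortex, 0 in hippocampus, 3 for Wild-type hippocampus against thalamus, and 6 in cortex and 0 in hippocampus for treated 5xFAD against treated Wild-type mice. Adjusted by itself, PLX5622 in 5xFAD hippocampus gave 4. Without the liver libraries it gave 17, and treated against treated 11. Without high-Xist libraries, counts were 0 for PLX5622 in 5xFAD hippocampus, 2 for treated against treated hippocampus, 1, 2 and 3 for Wild-type hippocampus against cortex, hippocampus against thalamus and cortex against thalamus, and 0 and 1 for 5xFAD hippocampus against cortex and cortex against thalamus. With the GC slope they were 1 for 5xFAD against Wild-type hippocampus, 2 and 15 for PLX5622 in 5xFAD cortex and hippocampus, 2 for PLX5622 in Wild-type thalamus, 4 for Wild-type hippocampus against cortex, 2 for 5xFAD hippocampus against thalamus and 11 for treated against treated hippocampus. With the oligodendrocyte covariate they were 1 for PLX5622 in 5xFAD cortex, 0 for PLX5622 in Wild-type thalamus, 0 and 4 for Wild-type hippocampus and thalamus against cortex, and 0 for both 5xFAD comparisons with cortex. The cause was not tested. Leaving out 1 library gave 0 to 1 (5xFAD against Wild-type hippocampus), 0 to 1, 1 to 16 and 0 to 3 (PLX5622 in 5xFAD cortex, hippocampus and thalamus), 0 to 1 (PLX5622 in Wild-type thalamus), 0 to 2, 3 to 7 and 5 to 10 (Wild-type regions), 0 to 4, 0 to 1 and 2 to 7 (5xFAD regions), 3 to 10 (treated against treated hippocampus) and 0 to 1 (genotype difference in hippocampus), and 0 to 0 elsewhere. With a replicate block, PLX5622 in 5xFAD hippocampus had 8 calls (number as a term) or 9 (as an animal, consensus correlation 0.026), and Hsd17b7 lost its call with the number as a term (limma adjusted p = 0.0573). Same-numbered libraries correlated over 0.1 in every pair in no comparison, so the numbers were not taken as pairs. Yet high Xist fell on the same replicate number in each region of a group that held it. Whether same-numbered libraries came from 1 mouse is not given, and the main fit took libraries of different regions as independent.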
